A study of Mus musculus with 16 samples.

Results

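Hepatic stellate cells (HSCs) of mice with a Zeb2 knock-out (KO) in endothelial cells (ECs) were compared with HSCs of wild-type (WT) littermates, in 4 of the 16 RNA-sequencing libraries of the series. The comparison comprised all libraries labelled as stellate cells, namely HSC KO 8, HSC KO 20, HSC WT 32 and HSC WT 40, where the number is that of the label. The other 12 libraries held ECs, Kupffer cells (KCs) and hepatocytes (HEPs), again with 2 libraries per label. Mice labelled KO carried Cdh5-CreERT2, a tamoxifen-inducible recombinase under an endothelial promoter, and Zeb2 alleles with exon 7 between loxP sites, on an R26R CAG-boosted eGFP reporter background. Controls were littermates without Cre. Mice of both labels received 2 mg of tamoxifen per day for 5 days, so that tamoxifen was shared by both groups, and their livers were otherwise unchallenged. Mice were males of 8 weeks where nothing else was stated, and mRNA was measured 2 weeks after tamoxifen. HSCs were sorted as ultraviolet-autofluorescent cells after red blood cell lysis and were not themselves the target of Cre. The question was thus which HSC genes differed when Zeb2 had been targeted in the neighbouring endothelium. The labels do not say that libraries came from separate mice, so the tests below measure only the spread between these libraries, which may be technical.

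HSCs lie in the space between sinusoidal ECs and hepatocytes, where they store vitamin A as retinyl esters in lipid droplets. They wrap the sinusoid like pericytes, make hepatocyte growth factor and basement membrane, and respond to endothelial cues. After injury they lose their vitamin A, express smooth muscle actin and become the main source of fibrillar collagen in the liver.

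Between 14460127 and 15629598 reads per HSC library were counted on genes, and 3 counts corresponded to 0.192 to 0.207 CPM, which are reads of a gene relative to all reads counted on genes in that library. Values below are CPM scaled with TMM factors (edgeR's correction for composition) and are given in the order HSC KO 8, HSC KO 20, HSC WT 32, HSC WT 40, unless another scale is named. Libraries of the same label differed far beyond counting noise (chi-square on 1 degree of freedom averaging 67.0 over genes for KO and 65.4 for WT). In ECs, Zeb2 was not lower under the KO label (116 ± 27.3 CPM against 76.1 ± 3.48 in WT, SD, n = 2, scaled over all 16 libraries). Counts cover the whole gene and do not isolate exon 7, so they check the deletion only in part, and groups are called by their labels.

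The libraries carried the markers of HSCs. Lrat, the enzyme that esterifies retinol, ranged from 773 to 1899.6 CPM in the 4 HSC libraries and reached 33.2 CPM in the other 12, on the scale of all 16. Reln, the secreted glycoprotein reelin, ranged from 1104 to 1538 CPM against at most 19.6, and Des, the intermediate filament desmin, from 418 to 585 against at most 17.2. Between labels, Lrat had 1602, 1763, 917 and 2214 CPM and its groups overlapped (log2 fold change 0.10 ± 0.43, SE, edgeR adjusted p = 0.972). Reln had 1820.1, 1311, 1678 and 1744 CPM and also overlapped (−0.13 ± 0.25, adjusted p = 0.935). Des had 617, 695, 525 and 487 CPM and was higher in both KO libraries, with an adjusted p of 0.709 (0.38 ± 0.21). Zeb2 itself, a zinc-finger repressor that HSCs also express, had 512, 429, 424 and 407 CPM (0.18 ± 0.21, adjusted p = 0.875).

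In HSCs 0 of 14390 genes tested (0.0%) passed an adjusted p of 0.05 with edgeR's quasi-likelihood test, and the smallest adjusted p was 0.283. Without adjustment, 252 genes had a p under 0.05 and were higher under KO (1.75%) and 1007 were lower (7.0%). DESeq2, the alternative tool, called 407 of 15056 genes (2.7%), of which 17 were higher and 390 lower. The levels of the labels did not overlap for 5822 genes (40.5%), of which 2861 were higher under KO (19.9%) and 2961 lower (20.6%). These shares are the background for each count of genes below. The verbs "higher" and "lower" describe the libraries, since no gene passed the threshold.

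Genes were then separated by their level in hepatocytes, because hepatocyte RNA is abundant in liver preparations. Of the 47729 genes listed, 36970 had a mean under 1 CPM in the 2 HEP WT libraries (unscaled), and 4121 of these had enough counts in HSCs to be tested. Among these hepatocyte-silent genes, 97 had an unadjusted p under 0.05 and were higher under KO (2.35%) and 99 were lower (2.4%). Their smallest adjusted p was 0.297, their median log2 fold change was 0.09, and DESeq2 called 24 of them, 6 higher and 18 lower. With genes that edgeR's filter had dropped, DESeq2 called 8 higher and 18 lower under this limit. The limit fell within a continuum: Ptger3 and Lamb1 lay just inside with 0.987 and 0.994 CPM in HEP WT, and Des and Reck just outside with 1.01 and 1.02 CPM.

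The remaining 10269 genes had a different balance, with 155 higher and 908 lower at an unadjusted p under 0.05. A part of these were hepatocyte-enriched genes, defined as those with at least 10 CPM in HEP WT and at least 8 times their level in KC WT. Of 762 such genes tested, 9 were higher and 407 lower at an unadjusted p under 0.05, with a median log2 fold change of −2.01. DESeq2 called 282 of them, 1 higher and 281 lower. The other 9507 genes had 146 higher and 501 lower, with a median of 0.03. In bulk libraries, fewer cells of a type and less RNA per cell cannot be told apart.

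**Figure D1:**
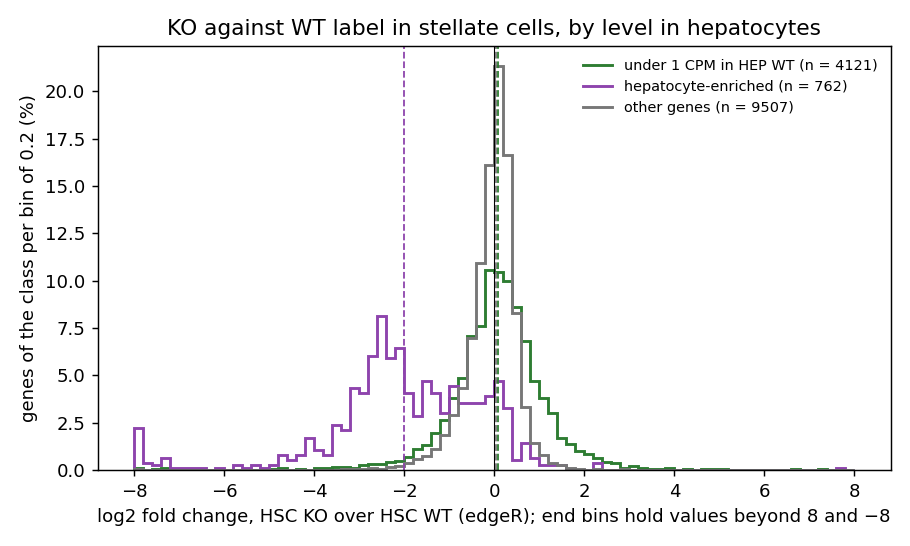
Share of genes (%) per bin of log2 fold change of KO over WT in the HSC libraries, for 3 classes by level in hepatocytes; dashed lines mark the medians of each class. Genes under 1 CPM in HEP WT (median 0.09) and other genes (0.03) centre near 0, whereas hepatocyte-enriched genes centre at −2.01.

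Hepatocyte markers were lower in both KO libraries for 15 of 15 genes, and all 15 had an unadjusted p under 0.05. Their summed level was 709.9 and 1775 CPM (unscaled) in the KO libraries against 3874 and 9277 in the WT libraries, compared with 120750 in hepatocytes. Across 857 hepatocyte-enriched genes, the median level was 0.915% and 1.39% of that in HEP WT in the KO libraries and 3.91% and 7.94% in the WT libraries. Cps1, a mitochondrial enzyme of the urea cycle, had 9.21, 4.10, 94.6 and 133 CPM (−4.09 ± 0.46, adjusted p = 0.283). Hnf4a, the nuclear receptor that defines hepatocytes, had 0, 0.216, 5.51 and 6.54 CPM, and Tat, which degrades tyrosine, had 6.58, 13.5, 77.3 and 158 CPM. Apob, the core protein of secreted lipoproteins, had 1.65, 4.67, 17.8 and 30.9 CPM. Groups did not overlap for any of these 4 genes. Lower hepatocyte RNA thus moved with the KO label, and its part in results on genes that hepatocytes express was not tested. All 4 genes were also lower under KO in ECs (log2 fold changes −2.96, −2.76, −2.94 and −3.14 for Cps1, Hnf4a, Tat and Apob). In ECs the edgeR adjusted p was 0.0290 for Cps1, Tat and Apob and 0.107 for Hnf4a. In KCs the same genes had 1.22, −0.14, 0.35 and 0.98, with adjusted p of at least 0.933.

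Erythroid, T and NK cell and EC markers were lower as well. Of 4 erythroid markers tested, 4 were lower with an unadjusted p under 0.05, and their list summed to 26.9 and 9.68 CPM under KO and 298.9 and 100.3 CPM under WT (unscaled). Hba-a1 and Hbb-bs, which encode globin chains, had 8.03, 2.73, 106 and 36.3 CPM and 13.5, 3.59, 132 and 41.9 CPM. Alas2, the first enzyme of erythroid haem synthesis, had 0.987, 2.95, 30.4 and 13.3 CPM. Its level in HEP WT was 210 CPM (unscaled), where Hba-a1 and Hbb-bs had 2.52 and 3.03 CPM. The part of hepatocyte RNA in the Alas2 result was not tested. All 8 T and NK cell markers tested were lower, 3 of them at an unadjusted p under 0.05 (Cxcr6, Cd3g and Gzmb), and the sums were 9.47, 6.29, 57.1 and 32.4 CPM. Gzmb, a cytotoxic granule protease, had no read in either KO library against 41 counts over the WT libraries, at least 12.7-fold higher in WT against a floor of 3 counts over the KO label.

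EC markers were lower for 11 of 12 genes, and 5 had an unadjusted p under 0.05 (Kdr, Clec4g, Pecam1, Tek and Ptprb). The summed EC markers had 345, 392, 802 and 454 CPM (unscaled), against 19537 CPM in EC WT, so that HSC WT 32 stood above the other 3 libraries. Kdr, the main receptor for vascular endothelial growth factor, had 26.3, 9.42, 125 and 38.8 CPM (−2.20 ± 0.71, adjusted p = 0.478). Its level in EC WT was 2215 CPM.

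KC markers did not follow the label, with sums of 749, 3540.1, 3438 and 992 CPM and 0 of 12 genes at an unadjusted p under 0.05 in edgeR and 0 called by DESeq2. Neutrophil and B cell markers were highest in HSC KO 20, at 68.7 CPM against 5.25 to 15.5 and at 94.0 CPM against 16.5 to 53.2. Ighd, an immunoglobulin heavy chain constant region, was the 1 B cell marker with an unadjusted p under 0.05 and had 0.724, 0.144, 2.95 and 5.97 CPM. Dendritic cell, cholangiocyte, mesothelial and portal fibroblast markers had 0 genes at an unadjusted p under 0.05 and 0 called by DESeq2. Summed dendritic cell markers (55.1, 54.1, 70.5 and 74.6 CPM) and cholangiocyte markers (9.68, 8.44, 13.3 and 13.5 CPM) were lower in both KO libraries. The sums of portal fibroblast markers overlapped (264, 196, 314 and 182 CPM), whereas those of smooth muscle markers were higher in both KO libraries (59.0 and 99.9 against 27.5 and 29.9 CPM). HSC markers summed to 4244, 3627, 3046 and 4475 CPM, which overlapped.

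**Figure D2:**
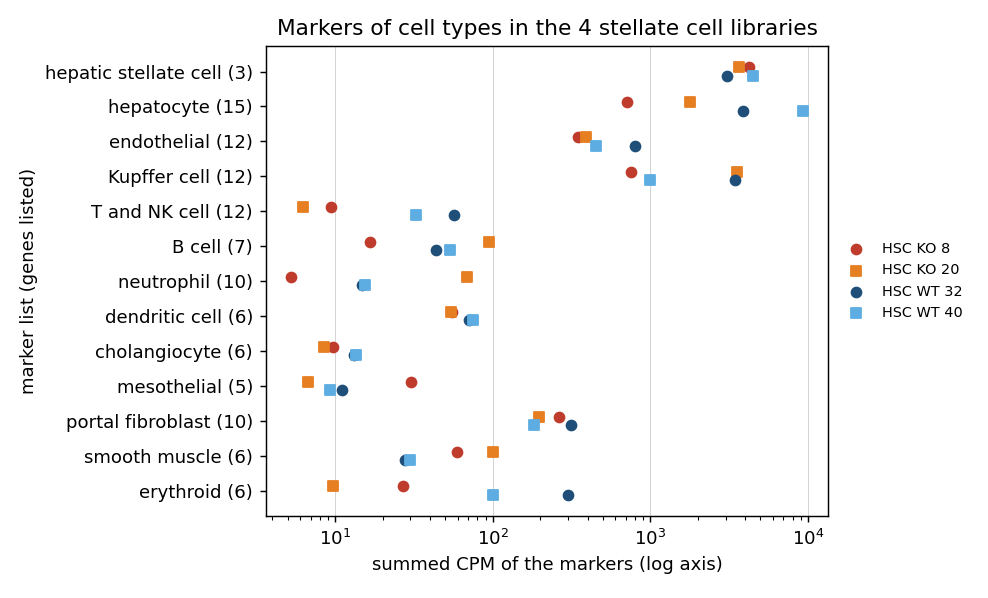
Summed unscaled CPM (log axis) of the markers of 13 cell types in each of the 4 HSC libraries, with the number of genes listed in brackets. Hepatocyte, EC, T and NK cell, erythroid, dendritic cell and cholangiocyte markers were lower in both KO libraries. Smooth muscle markers were higher in both, and KC markers overlapped.

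Genes of the contractile apparatus had a higher median log2 fold change than the other functional lists described here (cell type markers apart), although none passed the adjusted threshold. The list was chosen with earlier results of these data known. Of 14 genes listed, 12 were tested, and all 12 had a log2 fold change above 0, although Mylk, at 0.00, was below 0 with RLE factors, with DESeq2, in a fit of all 16 libraries and when scaled on hepatocyte-silent genes, each of which left 11 of 12. The median log2 fold change was 1.16 against 0.02 over all genes, and was the same with Myocd at its lower bound. Groups did not overlap for 9 of the 12, against 19.9% of all genes in this direction. Among the 9 were Tagln, for which HSC KO 8 and HSC WT 32 were level, and Cnn1 and Myocd, at most 1.87 and 2.04 CPM. An unadjusted p under 0.05 was reached by 5 members (Myl9, Myh11, Tpm2, Myocd and Acta2) against 1.75% of all genes, and DESeq2 called 3 (Myl9, Myh11 and Acta2). Without HSC WT 32 the 5 became 2.

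The promoters of Myl9, Acta2 and Tpm2 from RefSeq (build GRCm38.p6) are shown for 3 of the 5 members with an unadjusted p under 0.05, as the 250 bases before the RefSeq start site, 5′ to 3′. They lie at chr2:156775214-156775463 (plus strand) for Myl9, chr19:34255374-34255623 (minus strand) for Acta2 and chr4:43523555-43523804 (minus strand) for Tpm2. Capitals mark the CArG box in its strict form, the element bound by serum response factor, searched on both strands (it is its own reverse complement). It was found in 1 of the 9 contractile genes tested that had an entry, and in 482 of 32851 promoters of the same length (1.47%). No capitals means only that these letters are not in this window.
Myl9: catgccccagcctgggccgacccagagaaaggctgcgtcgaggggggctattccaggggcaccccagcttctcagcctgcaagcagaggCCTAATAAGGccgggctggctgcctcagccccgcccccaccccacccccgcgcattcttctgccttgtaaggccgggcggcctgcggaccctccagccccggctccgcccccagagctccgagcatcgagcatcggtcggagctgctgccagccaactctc
Acta2: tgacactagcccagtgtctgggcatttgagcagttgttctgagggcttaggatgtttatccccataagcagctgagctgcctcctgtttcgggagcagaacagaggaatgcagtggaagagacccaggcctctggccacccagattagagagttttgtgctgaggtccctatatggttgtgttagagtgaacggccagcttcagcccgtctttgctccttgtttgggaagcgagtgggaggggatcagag
Tpm2: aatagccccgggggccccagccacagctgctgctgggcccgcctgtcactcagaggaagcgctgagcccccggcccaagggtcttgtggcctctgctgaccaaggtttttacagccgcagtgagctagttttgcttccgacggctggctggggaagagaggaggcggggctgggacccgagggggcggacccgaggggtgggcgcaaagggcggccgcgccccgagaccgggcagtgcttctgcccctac

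Myl9 (ENSMUSG00000067818), the regulatory light chain of smooth muscle myosin, had 500.1, 519, 244 and 217 CPM. Both KO libraries were about equally high, and both lay above the WT libraries (1.14 ± 0.20, adjusted p = 0.309, DESeq2 adjusted p = 0.000811). Its gene spans chr2:156775420-156781658 on the plus strand, so that the printed window, taken from the RefSeq start, reaches into the GENCODE gene model. The gene models of Acta2 (chr19:34241090-34255590) and Tpm2 (chr4:43514711-43523765), both on the minus strand, cover most of their printed windows. Myh11, the smooth muscle myosin heavy chain, had 47.5, 93.6, 25.6 and 26.6 CPM (1.44 ± 0.36, adjusted p = 0.381). Tpm2, the beta chain of tropomyosin, had 85.7, 146, 44.9 and 58.0 CPM (1.17 ± 0.32, adjusted p = 0.418). In both genes HSC KO 20 was the highest library.

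Acta2, the smooth muscle actin used as a marker of HSC activation, had 52.0, 166, 26.1 and 30.9 CPM. The groups did not overlap, but HSC KO 20 was far above HSC KO 8, and the log2 fold change of 1.93 ± 0.55 (adjusted p = 0.427) became 0.86 without it. Myocd, a coactivator of serum response factor, had 31 and 10 counts in the KO libraries and no read in either WT library, at least 14.8-fold higher against a floor of 3 counts over the WT label. Cnn1 and Lmod1, which encode the actin-binding proteins calponin and leiomodin, were low at 0.131 to 7.69 CPM and higher in both KO libraries. Tagln, which encodes transgelin, had 94.7, 164, 94.6 and 72.7 CPM, so that HSC KO 8 and HSC WT 32 were level.

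Other contractile genes differed less or overlapped. Mylk, the most abundant of the list and the kinase that phosphorylates myosin light chains, had 812, 848, 774 and 883 CPM, and its groups overlapped (0.00 ± 0.21, adjusted p = 0.999). Cald1, the actin-binding caldesmon, had 661, 776, 506 and 544 CPM (0.45 ± 0.21, adjusted p = 0.634). Smtn and Tpm1, at 278 to 635 CPM, overlapped between labels. All 6 smooth muscle markers (Myh11, Cnn1, Actg2, Pln, Lmod1 and Myocd) are also on the contractile list, so that HSCs and other mural cells in the sort cannot be told apart by them.

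**Figure D3:**
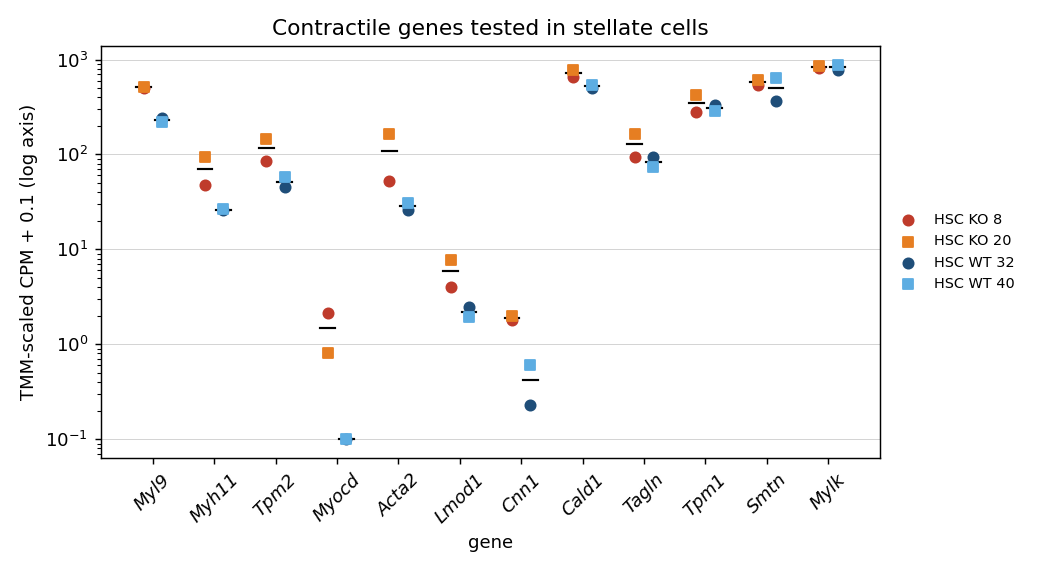
TMM-scaled CPM plus 0.1 (log axis) of the 12 contractile genes tested, ordered by unadjusted p, with 1 point per library and a bar at the mean of each label. Myl9 had 500.1 and 519 CPM under KO and 244 and 217 under WT, while Mylk overlapped.

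Genes that characterise quiescent HSCs were balanced, with 11 of 21 higher and 10 lower under KO and a median of 0.10. Rgs5, a regulator of G-protein signalling typical of pericytes, had 3393, 2795, 6409 and 4903 CPM and was lower in both KO libraries (−0.87 ± 0.26, adjusted p = 0.436). Vipr1, a receptor for vasoactive intestinal peptide, had 1254, 1054, 1630.4 and 1813 CPM (−0.58 ± 0.22, adjusted p = 0.551). Lhx2, a homeobox factor that restrains HSC activation, had 91.7, 82.1, 40.9 and 64.2 CPM and was higher in both KO libraries (0.73 ± 0.28, adjusted p = 0.548). These were the only 3 of the 21 with an unadjusted p under 0.05 in edgeR, and DESeq2 called 0. The most abundant members, Ecm1 (30409.6 to 43995 CPM), which restrains activation of latent transforming growth factor (TGF)-β, and the lectin Colec11 (5253 to 9356 CPM), overlapped between labels.

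Vitamin A genes likewise did not move as a group, with 11 of 21 tested higher, 10 lower and a median of 0.04. The 3 members with an unadjusted p under 0.05 were all hepatocyte-enriched. Rbp4, the plasma carrier of retinol made by hepatocytes, had 26.8, 60.1, 181 and 395 CPM in HSCs and 6375 CPM in HEP WT. Ces1d, a carboxylesterase of hepatocytes, had 11.2, 16.7, 42.0 and 74.3 CPM against 1576 CPM in HEP WT. Cyp26a1, which degrades retinoic acid, had no read in either KO library and 0.984 and 2.16 CPM in the WT libraries, at least 15.1-fold higher in WT. Hepatocyte markers were lower in the same libraries, and their part was not tested.

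Matrix genes included more lower than higher members. Of 21 collagen genes tested, 16 were lower and 5 higher, with a median of −0.33, and 4 lower members had an unadjusted p under 0.05 (Col3a1, Col5a2, Col4a3 and Col18a1). Col3a1, which forms type III collagen fibrils, had 1129, 517, 2383 and 1577 CPM, with both KO libraries below both WT libraries (−1.27 ± 0.44, adjusted p = 0.504). Col5a2, a chain of the type V collagen that nucleates fibrils, had 74.4, 70.9, 146 and 107 CPM (−0.80 ± 0.23, adjusted p = 0.430). Col1a2, a chain of type I collagen, had 959, 722, 1357 and 1186 CPM (−0.60 ± 0.24, adjusted p = 0.577). In contrast Col14a1, the most abundant collagen gene, which binds the surface of fibrils, had 2293, 2941, 2297 and 2089.9 CPM and overlapped. Col18a1, the source of endostatin, had 4.21, 17.6, 43.4 and 52.4 CPM and is hepatocyte-enriched (584 CPM in HEP WT), while Col4a3 did not exceed 2.89 CPM.

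Among 15 basement membrane genes, 11 were lower and 4 higher, with a median of −0.19, and 5 had an unadjusted p under 0.05, all lower. Nid2, which links laminin to collagen IV, had 93.8, 84.9, 188 and 171 CPM (−1.01 ± 0.20, adjusted p = 0.330, DESeq2 adjusted p = 0.0110). Lamb1, the laminin β1 chain, had 478, 422, 665 and 651 CPM (−0.55 ± 0.20, adjusted p = 0.541), and Lamb2, the β2 chain, had 67.6, 69.6, 140.0 and 91.1 CPM (−0.75 ± 0.26, adjusted p = 0.504). Within each label the libraries lay close together for Nid2 and Lamb1. The 2 remaining members, the laminin chains Lamc3 and Lama3, did not exceed 6.56 CPM and had at most 0.287 CPM under KO. Sparc, a matricellular protein and the most abundant member, had 5752, 9023, 4314 and 5892 CPM and overlapped.

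Proteoglycan and elastic fibre genes were more often higher (11 of 17, median 0.12). Fmod, a proteoglycan that regulates collagen fibrils, had 8.82, 24.0, 1.71 and 5.40 CPM and was the 1 member with an unadjusted p under 0.05 (2.20 ± 0.76, adjusted p = 0.504). Dcn, the proteoglycan decorin and one of the most abundant HSC transcripts, ranged from 32229.6 to 39267 CPM and overlapped.

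Of 19 matrix proteases and their inhibitors, 13 were lower, with a median of −0.41. Reck, a membrane-anchored inhibitor of metalloproteinases, had 75.1, 41.0, 143 and 117 CPM (−1.17 ± 0.33, adjusted p = 0.430). Adamts1, a protease of proteoglycans, had 1144, 677, 2007 and 1498 CPM (−0.95 ± 0.33, adjusted p = 0.504), and ECs had a similar level (1288 CPM in EC WT). The metalloproteinases Mmp19 and Mmp3 went opposite ways. Mmp19 had 8.42, 5.17, 23.5 and 17.7 CPM, whereas Mmp3 had 21.1, 6.18, 2.099 and 4.76 CPM. Mmp19 had 87.3 CPM in HEP WT and Mmp3 had 0.

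**Figure D4:**
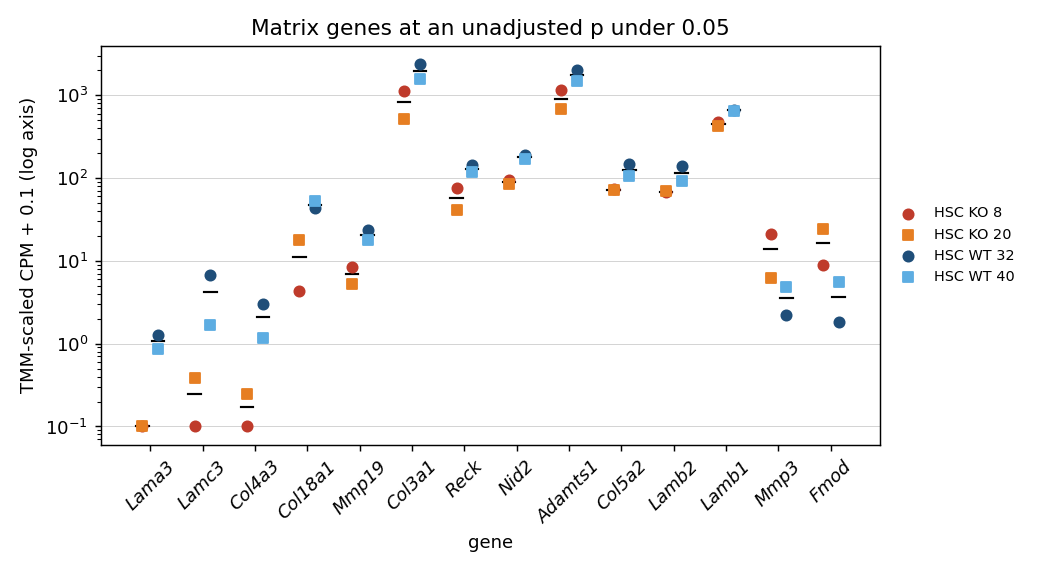
TMM-scaled CPM plus 0.1 (log axis) of the 14 collagen, basement membrane, proteoglycan and protease genes with an unadjusted p under 0.05, with 1 point per library and a bar at the mean of each label. Mmp3 and Fmod lay above WT in both KO libraries, and the other 12 lay below.

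The list of HSC activation genes shares members with those above and was mixed, with 7 of 26 higher, 19 lower and a median of −0.09. Acta2 was higher, whereas Col3a1, Col5a2 and Spp1 were lower, at an unadjusted p under 0.05. Spp1, the secreted phosphoprotein osteopontin, had 30.7, 39.5, 87.8 and 74.1 CPM (−1.21 ± 0.24, adjusted p = 0.329). Its level was 229 CPM in EC WT, 149 CPM in KC WT and 50.2 CPM in HEP WT, and the part of these cells was not tested. Acta2 and the collagen genes Col3a1 and Col5a2, all used as signs of activation, thus lay on opposite sides of WT in these libraries. It was not tested whether they differed from each other.

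In the TGF-β and BMP pathway, 18 of 28 genes were higher and 10 lower, with a median of 0.15. The 2 members with an unadjusted p under 0.05 were lower. Ltbp1, which tethers latent TGF-β to the matrix, had 43.2, 34.6, 82.2 and 66.7 CPM and did not overlap (−0.94 ± 0.24, adjusted p = 0.382). Bmp2, a BMP ligand that sinusoidal ECs also make, had 94.3, 87.3, 237 and 144 CPM (−1.07 ± 0.29, adjusted p = 0.413), against 1312 CPM in EC WT. The EC markers were lower in the same libraries, and their part was not tested for Bmp2. Id3, a BMP target gene, had 2371, 3443, 1930.0 and 1921 CPM and was higher in both KO libraries (0.59 ± 0.26, adjusted p = 0.614).

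Among receptors for endothelial and mesenchymal cues, 14 of 27 were higher and 13 lower, with a median of 0.02. Notch3, the Notch receptor of mural cells, had 16.9, 35.5, 12.8 and 9.47 CPM and was the 1 higher member with an unadjusted p under 0.05 (1.23 ± 0.45, adjusted p = 0.526). S1pr3, a sphingosine 1-phosphate receptor, had 804, 961, 1287 and 1340.0 CPM (−0.57 ± 0.22, adjusted p = 0.543). Fgfr2, a fibroblast growth factor receptor, had 452, 197, 733 and 737 CPM (−1.18 ± 0.41, adjusted p = 0.504). The WT libraries were nearly equal for both receptors, and both KO libraries were below them. S1pr1 and Plxna2, at 2.63 to 11.8 CPM in HSCs, were also lower, and both had over 100 CPM in EC WT (329 and 147 CPM).

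Of 27 secreted factors tested, 13 were higher and 14 lower, with a median of −0.03. Groups did not overlap for 10 of the 27, of which 2 were higher and 8 lower. Over all genes, these shares were 19.9% higher and 20.6% lower. The 1 member with an unadjusted p under 0.05 was Igf1, insulin-like growth factor, with 17.2, 32.3, 72.9 and 90.9 CPM. Its level was 829 CPM in HEP WT, 486 CPM in KC WT and 163 CPM in EC WT, and the part of these cells in the result was not tested.

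Genes of the early stress response had 19 of 23 lower and a median of −0.23, and 4, all lower, had an unadjusted p under 0.05. Their summed levels overlapped (53554, 53914, 63746 and 50358 CPM, unscaled). Fos, the most abundant member and a subunit of the AP-1 factor, had 13305, 15291, 13427 and 11145 CPM and also overlapped (0.22 ± 0.25, adjusted p = 0.871). Dnajb1, a heat shock cochaperone, had 659, 560.0, 1547 and 1639.8 CPM, with replicates close together and groups well apart (−1.39 ± 0.22, adjusted p = 0.297, DESeq2 adjusted p = 1.63e-05). The inducible chaperones Hspa1a and Hspa1b, a near-identical pair between which reads may be split, had 112, 104, 174 and 382 CPM and 89.5, 93.0, 166 and 324 CPM. Egr2, a transcription factor of the immediate early class, had 572, 624, 1401 and 768 CPM. All 4 were below both WT libraries in both KO libraries. Genes of this list also respond to tissue dissociation, whose part was not tested.

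Inflammatory genes were lower for 19 of 20 members, with a median of −1.05, and 5 had an unadjusted p under 0.05. HSC WT 32 was the highest library for each of the 5. Ccl2, which attracts monocytes, had 139.6, 197, 1505 and 312 CPM (−2.43 ± 0.73, adjusted p = 0.441), and its log2 fold change was −0.91 without that library. Vcam1, an adhesion molecule for leukocytes, had 441, 406, 1459 and 555 CPM, and Cxcl1, which attracts neutrophils, had 226, 300.4, 1079 and 379.8 CPM. Tnfaip3, an inhibitor of NF-κB that NF-κB induces, had 10.0, 45.4, 461 and 51.5 CPM, and Ptgs2, the inducible cyclooxygenase, had 1.12, 2.66, 26.7 and 3.81 CPM. HSC WT 40 lay closer to the KO libraries than to HSC WT 32 in all 5. Without HSC WT 32, 1 inflammatory gene had an unadjusted p under 0.05 and the median of the list was −0.09.

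Interferon-responsive genes had 13 of 20 lower, with a median of −0.28, but HSC WT 32 again stood apart, with a summed level of 4974 CPM (unscaled) against 1516, 2276 and 1612 CPM in HSC KO 8, HSC KO 20 and HSC WT 40. The median turned to 0.49 without HSC WT 32 and to 0.10 without HSC KO 8. Of 20 cell cycle genes, 13 were lower (median −0.24), and the 1 at an unadjusted p under 0.05 was Mcm2, a subunit of the replicative helicase, with 26.6, 22.0, 37.2 and 38.1 CPM. Of 14 genes of nervous system type adhesion tested, 9 were lower (median −0.19). Cdh2, N-cadherin, had 175, 123, 263 and 237 CPM (−0.75 ± 0.25, adjusted p = 0.484) and falls in the hepatocyte-enriched class (47.0 CPM in HEP WT), and Syp, the vesicle protein synaptophysin, had 2.50, 1.22, 8.72 and 5.21 CPM.

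The hepatocyte-silent gene with the smallest p was Pcdh18, a protocadherin, which is a cell adhesion molecule of the cadherin family (ENSMUSG00000037892, chr3:49743296-49757325, minus strand). It had 40.2, 34.6, 98.2 and 112 CPM. Both KO libraries were below both WT libraries, with little spread within a label (−1.49 ± 0.21, adjusted p = 0.297, DESeq2 adjusted p = 0.000113). Its level was 0.299 CPM in EC WT and 0.375 CPM in HEP WT and it had no read in KC WT. Protocadherins had no list of their own, and members of the family that the naming rule did not pick were not counted. The 3 clustered genes Pcdhgb6, Pcdhb16 and Pcdhb8 had 6.97, 6.68, 18.5 and 17.5 CPM, 12.2, 7.83, 25.8 and 24.9 CPM, and 2.50, 2.44, 8.26 and 7.62 CPM. Clustered protocadherins share similar or overlapping exons, so that their reads may be split or misassigned. Pcdh12, with 5.40, 4.53, 17.6 and 14.3 CPM, is an endothelial member with 173 CPM in EC WT.

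Hhip, which binds and restrains Hedgehog ligands, had 125, 97.4, 298 and 202 CPM. It was lower in both KO libraries (−1.17 ± 0.28, adjusted p = 0.356, DESeq2 adjusted p = 0.0176) and had 4.17 CPM in EC WT. Of the other lower genes chosen by the same rule, Cxcr6, a chemokine receptor of T and NK cells, had 0.724, 1.15, 16.5 and 7.18 CPM. Lyz1, a lysozyme, had 0.263, 0.934, 8.79 and 5.78 CPM and has a close paralogue, and Hbb-bt, a globin, had 2.57, 0.791, 37.2 and 8.01 CPM. Rab8b, a small GTPase of vesicle traffic, had 13.4, 10.2, 36.3 and 26.3 CPM. Cxcr6 and Hbb-bt moved with the T and NK cell and erythroid markers to which they belong, whose part was not tested.

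Of the higher hepatocyte-silent genes, Ptger3, a receptor for prostaglandin E2, had 25.1, 87.7, 11.0 and 13.02 CPM. HSC KO 20 was far above HSC KO 8, and both exceeded WT (2.23 ± 0.60, adjusted p = 0.413, DESeq2 adjusted p = 0.00678). Marcks, an actin-binding substrate of protein kinase C, had 141, 145, 86.5 and 88.1 CPM, with close replicates (0.71 ± 0.19, adjusted p = 0.402). Irs3, an insulin receptor substrate, had 22.4, 25.9, 5.97 and 11.6 CPM and was at or near 0 in the other 3 cell types. Nrxn3, a neurexin, had 67.8, 77.0, 37.1 and 48.6 CPM (0.76 ± 0.23, adjusted p = 0.448). Xlr3b, from a family of near-identical X-linked genes, had 7.24, 4.10, 0.459 and 0.508 CPM. Nufip2, Rufy2 and Mxra7 were between 16.0 and 26.4 CPM under KO and between 3.61 and 11.6 CPM under WT, and the olfactory receptor gene Olfr1030 had 4.08, 13.4, 0.525 and 0 CPM.

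HSC-enriched genes were those under 1 CPM in HEP WT with at least 5 CPM in HSCs and at least 4 times the level of EC WT, KC WT and HEP WT. The HSC level was the mean of all 4 HSC libraries, so a gene could enter through the label in which it was high. Of 470 tested, 21 were higher (4.47%) and 15 lower (3.19%) at an unadjusted p under 0.05. Over all genes the shares were 1.75% and 7.0%. The median of the class was 0.10, and DESeq2 called 4. Because of how genes entered, these counts describe the class and are not a test of it. The 5 with the smallest p in each direction were Myh11, Ptger3, Tpm2, Irs3 and Nrxn3, which were higher, and Pcdh18, Hhip, Ltbp1, Col5a2 and Pcdhb8, which were lower.

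**Figure D5:**
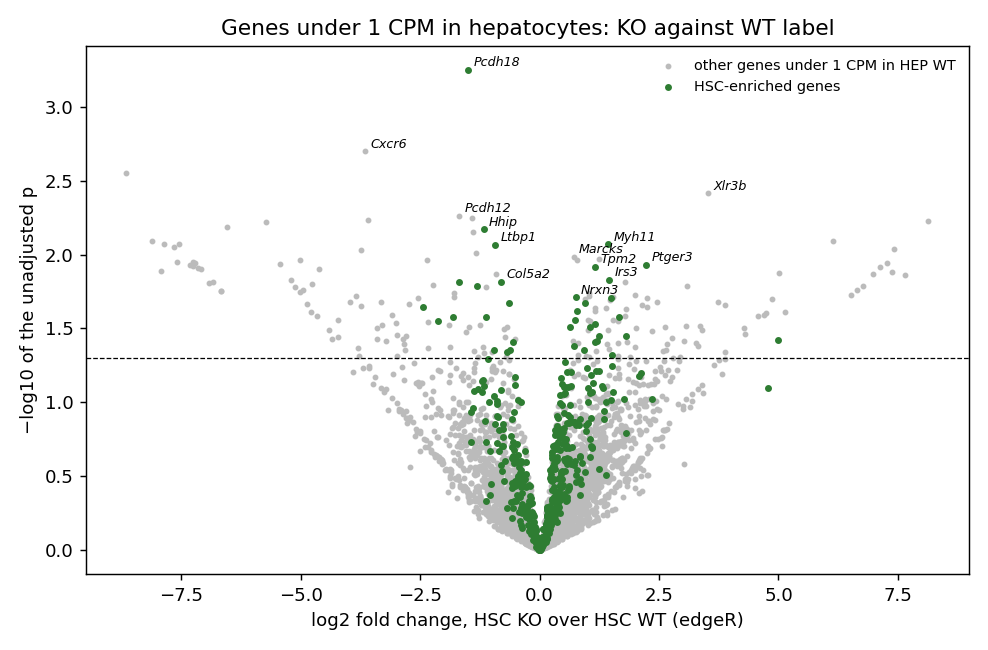
Log2 fold change of KO over WT against −log10 of the unadjusted edgeR p for the 4121 genes under 1 CPM in HEP WT, with the 470 HSC-enriched genes in green and a dashed line at 0.05. Pcdh18 (−1.49) lies highest, with Myh11 (1.44) and Ptger3 (2.23) on the other side, and no gene passed the adjusted threshold.

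Among genes at or over 1 CPM in HEP WT, the higher genes with the smallest p besides Myl9 were Fam171b, Gpc3, Malat1 and Ccdc181. Fam171b, a transmembrane protein, had 100.3, 55.1, 6.30 and 8.13 CPM, against 7.57 CPM in HEP WT (3.43 ± 0.38, adjusted p = 0.283, DESeq2 adjusted p = 3.15e-12). Gpc3, a heparan sulphate proteoglycan that modulates Hedgehog and insulin-like growth factor signals, had 158, 159, 67.4 and 59.2 CPM (1.32 ± 0.20, adjusted p = 0.297). The long nuclear RNA Malat1 had 3466, 3282, 1482 and 1375 CPM (1.24 ± 0.21, adjusted p = 0.309), and Ccdc181 had 6.12, 7.98, 0.525 and 0.635 CPM. Replicates were close and groups well apart for Gpc3 and Malat1.

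The lower genes chosen in the same way were H2-Q10, Krt18, Pzp, Dpyd and C3, and all 5 were hepatocyte-enriched. H2-Q10, a secreted class I molecule of the liver, had 22.2, 27.2, 151 and 142 CPM (−2.57 ± 0.22, adjusted p = 0.283), against 2047 CPM in HEP WT. Krt18, an epithelial keratin, had 7.50, 6.90, 45.9 and 52.0 CPM. Pzp and C3, plasma proteins, reached 313 and 379 CPM in HSC WT 40, and Dpyd, a pyrimidine-degrading enzyme, 26.2 CPM.

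The KO effect in HSCs was compared with that in ECs and KCs as an interaction over all 16 libraries. Cell types were isolated side by side, so that a liver may have given several libraries, which the fit ignores. Between HSCs and ECs the effect differed for 6 of 17214 genes (0.0349%) at an adjusted p of 0.05, of which 4 were hepatocyte-enriched and 0 of 6458 hepatocyte-silent (280 of these at an unadjusted p under 0.05). The count fell to 0 without HSC KO 20, HSC WT 32 or HSC WT 40 and was 11 without HSC KO 8. Between HSCs and KCs it differed for 102 genes (0.593%), of which 93 were hepatocyte-enriched and 100 were lower in HSCs relative to KCs.

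For the contractile genes the interaction with ECs did not pass the threshold. Acta2 had a log2 fold change of 1.93 in HSCs and −1.999 in ECs, a difference of 3.92 ± 1.12 (adjusted p = 0.678). Myl9 had 1.14 in HSCs and −0.72 in ECs, a difference of 1.86 ± 0.62 (adjusted p = 0.829). ECs had few of these transcripts, with 23.1 CPM of Acta2 and 13.1 CPM of Myl9 in EC WT. Against KCs, the difference was −0.47 ± 1.08 for Acta2 and 0.17 ± 0.63 for Myl9 (adjusted p = 0.943 and 0.989). In KCs both were higher under KO, with log2 fold changes of 2.36 and 0.95 (edgeR adjusted p = 0.933 and 0.938). Their levels were low, at 3.66 and 3.73 CPM in KC WT. Acta2 had 31.5 CPM in KC KO 27 and 4.67 CPM in KC KO 43, on the scale of all 16 libraries.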

How the data were processed

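RNA was sequenced from sorted liver cells in 16 libraries, of which the 4 HSC libraries were compared here. The deposited values are raw read counts per Ensembl gene, and per the labels the authors' processing notes name Trimmomatic 0.32, HISAT2 2.1.0, HTSeq 0.9.1 and GRCm38. The annotation release and strand setting are not given in the sources used here. The labels name a stranded TruSeq kit and the series text Smart-seq2. The 5 summary lines of the counter (42.5 to 46.7% of each library) were dropped. Genes were filtered with filterByExpr, scaled by TMM and tested with the quasi-likelihood test of edgeR 4.0.16 in R 4.3.3, with Benjamini-Hochberg adjustment over all genes. Each SE of a log2 fold change was derived from that test, as the absolute log2 fold change divided by the square root of the F statistic. DESeq2 1.42.0 was an alternative, as were other scalings, filters, limits and libraries. The script was tested on simulated data. Exact permutation of 2 against 2 libraries cannot give a two-sided p below 0.333. Counting error is the only error covered by bounds against 3 counts. Positions are from GENCODE M21 (GRCm38), which holds 99.1% of the gene IDs. Members and lists were chosen with earlier results of these data known. Genes were named by the smallest p among genes whose labels did not overlap and that had at least 5 CPM in a label (10 per direction under 1 CPM in HEP WT and 5 per direction otherwise), from the HSC-enriched genes (5 per direction), and from list members with an unadjusted p under 0.05 or a high level.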

Additional observations from a re-analysis of the deposited data

Results flagged for a closer look

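For 8 genes named here the KO-minus-WT difference in HSCs differed from that in KCs by the interaction test (edgeR adjusted p under 0.05), and 7 of them were hepatocyte-enriched. The HSC difference minus the KC difference, on the log2 scale, was −2.98 for H2-Q10, −3.77 for Krt18, −5.35 for Cps1, −3.94 for Tat, −3.51 for Rbp4, −3.95 for Apob and −5.62 for Hnf4a. These 7 genes were also lower under KO in ECs, with log2 fold changes in the same order of −2.78, −2.19, −2.96, −2.94, −3.12, −3.14 and −2.76. None of the 7 passed the interaction test against ECs (adjusted p of at least 0.878).

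The remaining gene, Zfp772, a zinc-finger gene, was the only one of 6458 hepatocyte-silent genes tested to pass against KCs, while 441 had an unadjusted p under 0.05. Its fitted difference of 9.16 (adjusted p = 0.0429) depends on the prior count, since no read was found in either KC KO library. On the scale of all 16 libraries Zfp772 had 14.7 and 6.72 CPM in the HSC KO libraries, 6.14 and 3.71 CPM in the HSC WT libraries, and 1.06 and 3.12 CPM in the KC WT libraries. Hepatocytes were not without it, at 0.325 and 1.41 CPM in HEP WT and 2.35 and 2.04 CPM in HEP KO. EC libraries had 1.79 to 5.71 CPM.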

How the results depend on the processing

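No paired analysis was possible because the libraries of the 2 labels share no replicate number. With 2 libraries per label, counts of genes moved with the library left out and with the filter and tool. At an adjusted p of 0.05 no gene passed with a library left out, but those fits set 2 libraries against 1, take the spread from the label with 2 and assume that the lone library varies alike, so they say nothing of stability. In other alternatives 61 higher and 602 lower genes passed without a filter on low counts, 17 and 390 with DESeq2, and 2 and 176 in a fit of all 16 libraries. Under 1 CPM in HEP WT these were 32 and 38, 8 and 18, and 1 and 2, and at or over that limit 29 and 564, 9 and 372, and 1 and 174. The cause was not tested.

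At an unadjusted p under 0.05, the 252 higher and 1007 lower genes became 493 and 1595 without a filter, the higher ones became 149 when scaled on hepatocyte-silent genes, and leaving out a library gave 110 to 396 higher and 588 to 1234 lower. Under the limit, the 97 higher and 99 lower became 259 and 296 without a filter and 160 and 179 with DESeq2, the lower ones became 64 with at least 10 counts in every library and 159 in the fit of all 16, and leaving out a library gave 47 to 147 and 26 to 210, the lowest counts without HSC WT 32. At or over the limit, the 155 higher became 73 with the hepatocyte-silent scaling and 234 without a filter, and leaving out a library gave 63 to 249 higher and 562 to 1024 lower.

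The hepatocyte-silent scaling shifted the median of all genes by −0.10. Median log2 fold changes under that scaling, without a filter, with DESeq2 and in the fit of all 16 libraries were −0.085, −0.029, −0.024 and 0.00 for all genes, −0.0079, −0.046, −0.041 and 0.0095 under the limit, and −0.072, 0.0094, 0.014 and 0.0078 for other genes. Leaving out a library gave −0.036 to 0.041, −0.0060 to 0.27 and −0.010 to 0.030, and −2.47 to −1.42 for hepatocyte-enriched genes. The median of the contractile list was 0.87 without a filter, 0.88 with at least 10 counts in every library, 0.88 with DESeq2, 0.87 in the fit of all 16 and 0.89 in libraries thinned to equal depth, since fewer or more members were tested, and 0.86 to 1.17 with a library left out. Its 5 members at an unadjusted p under 0.05 became 3 in the fit of all 16 and 2 to 6 with a library left out. Interaction counts ranged from 0 to 11 against ECs and from 21 to 213 against KCs.

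Of 108 single genes, 5 changed direction under an alternative, and none of these 5 had an unadjusted p under 0.05. Mylk was −0.00016 with RLE factors, −0.10 with the hepatocyte-silent scaling, −0.0098 without a filter, −0.0029 with at least 10 counts in every library, −0.0050 with DESeq2, −0.011 in the fit of all 16, and −0.10 to 0.10 with a library left out. Lrat was −0.011 with the hepatocyte-silent scaling and −0.41 to 0.87 with a library left out. The corresponding ranges were −0.15 to 0.64 for Smtn, −0.15 to 0.46 for Tpm1 and −0.39 to 0.082 for Reln. Some list members outside the 108 also changed direction with a library left out. Examples are Gbp2 (−2.24 to 0.21), Irgm1 (−2.08 to 0.50), Dpt (−1.35 to 0.20) and Ngp (−0.28 to 3.24).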

Other observations

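Disp2, a gene related to the Hedgehog release factor dispatched, was singled out after its values had been seen. It had 2.11, 165, 1.57 and 3.68 CPM in HSC KO 8, HSC KO 20, HSC WT 32 and HSC WT 40, so that 1 library alone was high and the labels overlapped (log2 fold change 4.98 ± 1.84, edgeR adjusted p = 0.539).

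Stc1, which encodes the secreted glycoprotein stanniocalcin, was among the 24 hepatocyte-silent genes called by DESeq2. It had no read in either KO library and 3.21 and 3.43 CPM in the WT libraries, with an edgeR adjusted p of 0.330. Its level in EC WT was 7.86 CPM, and the part of ECs was not tested.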
